A study of Mus musculus with 15 samples.

Results

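The genes described here encode the enzymes that hydroxylate and crosslink collagen. They were taken from the count table by name: the lysyl oxidases Lox, Loxl1, Loxl2, Loxl3 and Loxl4, the lysyl hydroxylases Plod1, Plod2 and Plod3, and the prolyl 4-hydroxylase subunits P4ha1 and P4ha2. These are 10 of the 18929 genes in the table, and 10 of 10 passed the filter on low counts, which kept 15369 genes. The smallest count of any of the 10 genes in any sample was 41 (Loxl3) and the largest was 4593 (Lox).

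The study sequenced poly(A) RNA from dorsal skin of male balb/c mice, aged 4 to 6 weeks at wounding and all of wild-type genotype, to ask how mouse wounds heal under printed gel beads that do or do not carry stem cells. Full-thickness wounds of 10 mm or 15 mm were filled either with acellular Matrigel beads or with HDB, which are Matrigel beads holding mesenchymal stem cells at high density, set apart from each other with acellular beads in the gaps. Normal skin was the fifth group, and each of the 5 groups held 3 samples. The methods give both 4 weeks in place and an end point at day 21, so the age of the healed skin is known only to that extent. The stem cells came from human umbilical cord, so the HDB samples may hold human RNA that was counted on a mouse table, and this was not tested. Nothing in the labels says which animals the replicates came from, so the p-values measure the spread between these samples, which may be technical.

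Collagen chains are modified inside the endoplasmic reticulum before they fold. Prolyl 4-hydroxylase, built from a catalytic alpha subunit (P4ha1 or P4ha2) and the protein disulfide isomerase P4hb, makes the hydroxyproline that keeps the collagen helix stable at body temperature, while the PLOD enzymes hydroxylate lysines that later carry sugars and crosslinks. Outside the cell the copper-dependent lysyl oxidases convert lysines of collagen and elastin to reactive aldehydes, which condense into the covalent crosslinks that give skin and scars their tensile strength. P4ha1, P4ha2, Plod2 and Lox are known targets of the hypoxia-inducible factor.

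Because of that last property the promoters of the genes were read for the core of the hypoxia response element, ACGTG, on both strands (CACGT on the other strand). RefSeq promoter sequences of 300 bases ran from 250 before the first transcribed base to 50 after it, on build GRCm38.p6. They were read for 5 of the 10 genes (P4ha1, P4ha2, Plod1, Plod3 and Loxl4). Those of Lox, Plod2 and the remaining genes were not read, so whether they hold the core was not tested. Of all 32851 RefSeq promoters of this length, 19.6% hold the core. It occurs in the 3 promoters shown here, with each match in capitals: once in P4ha1 (chr10:59323046-59323345, plus strand), at both of 2 places in P4ha2 (chr11:54100674-54100973, plus strand), and once in Plod3 (chr5:136986769-136987068, plus strand).
P4ha1: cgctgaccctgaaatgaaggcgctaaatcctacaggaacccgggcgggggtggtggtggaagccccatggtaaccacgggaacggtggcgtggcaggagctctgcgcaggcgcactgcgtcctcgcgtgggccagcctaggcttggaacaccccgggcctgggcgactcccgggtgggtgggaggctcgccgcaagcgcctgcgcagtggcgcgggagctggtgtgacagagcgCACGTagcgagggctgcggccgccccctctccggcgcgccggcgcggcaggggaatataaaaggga
P4ha2: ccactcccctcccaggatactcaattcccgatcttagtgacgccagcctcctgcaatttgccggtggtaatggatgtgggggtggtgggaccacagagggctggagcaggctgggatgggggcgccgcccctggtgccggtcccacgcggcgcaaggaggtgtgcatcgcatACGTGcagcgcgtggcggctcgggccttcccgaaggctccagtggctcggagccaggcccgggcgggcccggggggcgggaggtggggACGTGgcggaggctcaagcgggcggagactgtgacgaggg
Plod3: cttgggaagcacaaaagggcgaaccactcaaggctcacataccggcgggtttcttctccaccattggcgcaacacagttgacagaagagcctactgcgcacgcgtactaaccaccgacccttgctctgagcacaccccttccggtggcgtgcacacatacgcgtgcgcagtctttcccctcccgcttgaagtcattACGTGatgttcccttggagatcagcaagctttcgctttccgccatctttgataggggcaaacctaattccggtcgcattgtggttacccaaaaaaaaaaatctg
Each window is set by 1 RefSeq start site, and for P4ha1 that site lies downstream of the outermost start of the gene model given below, so its window straddles that outermost start and the match lies within the gene on that model. The match in P4ha1 starts at position -16 relative to the RefSeq start, those in P4ha2 at -78 and 11, and that in Plod3 at -54. The letters were not found in the windows of Plod1 and Loxl4, which says nothing about the factor itself.

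The libraries were of similar depth, from 15840551 to 18404188 counts. Samples differed more in composition. Acellular 15 mm replicates 1 and 3 correlated least with the mean of the other samples of their group (0.903 and 0.904 across genes, on log2 CPM, against 0.95 or more elsewhere), and several results below are given without one of them. Keratinocyte markers (Krt5, Krt14, Krt15, Trp63, Krt1 and Krt10) summed to 6454 CPM (read counts scaled to the library total after TMM scaling) or more in every sample, so the epidermis of the labelled tissue was present throughout. Fibroblast markers (8 genes, among them Dcn, Lum and Pdgfra) summed to 725 to 1118 CPM in acellular 10 mm skin, 1509 to 2102 in HDB 10 mm, 736 to 2335 in acellular 15 mm, 1749 to 3269 in HDB 15 mm and 1648 to 3753 in normal skin. Since these are bulk samples, fewer cells of a type and less RNA per cell cannot be told apart for any gene below.

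Levels of different genes were compared per kilobase of transcript. In normal skin Plod1 led, at 27.0 ± 5.46 CPM per kilobase (SD, n = 3), followed by P4ha1 at 22.9 ± 3.25, Plod3 at 21.3 ± 3.38 and P4ha2 at 19.9 ± 3.53. Loxl1 (15.8 ± 6.33), Lox (14.8 ± 3.98) and Loxl2 (9.45 ± 3.72) came next, and each gene down to Loxl2 overlapped its neighbour in the order. A gap separated these 7 genes from Loxl4 (2.29 ± 0.707), Loxl3 (1.91 ± 0.555) and Plod2 (1.78 ± 0.154), whose ranges overlapped each other. Within the lysyl hydroxylases, Plod2, which acts on the collagen telopeptides, was thus the lowest and Plod1, which acts on lysines in the helix, the highest. Lox headed the order in both HDB groups, at 24.4 ± 6.51 CPM per kilobase at 10 mm and 38.6 ± 15.6 at 15 mm, but P4ha1 followed at 23.5 ± 2.68 and 35.5 ± 8.22, well within the spread. With coding length in place of transcript length the order in normal skin began with P4ha1, then Lox (up from rank 6) and Plod1, so both the lead of Plod1 and the place of Lox depend on the length used.

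**Figure D1:**
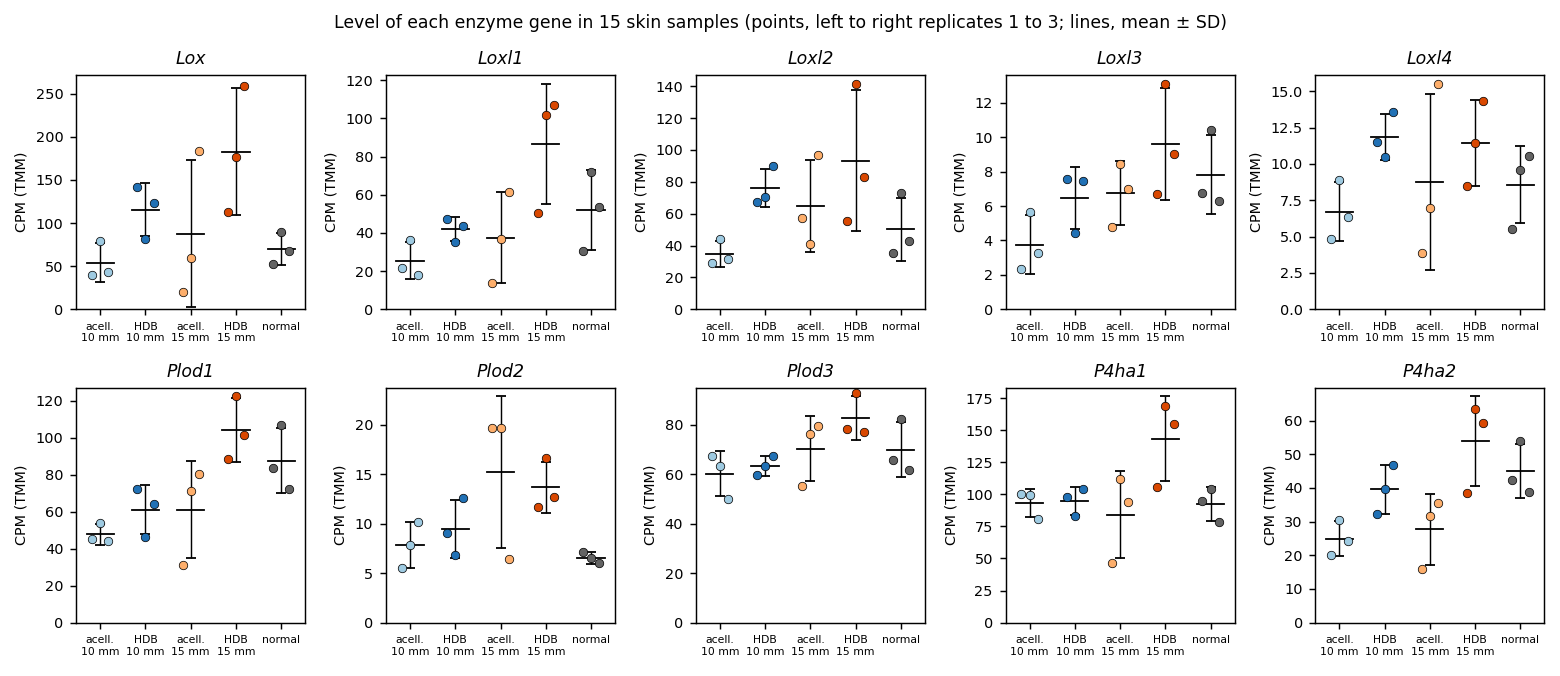
TMM-normalized CPM (vertical axis, linear, from 0) of each of the 10 genes in the 15 samples, by group, with points for replicates 1 to 3 and lines for the mean ± SD. Lox, Loxl1 and P4ha1 reach their highest values in HDB 15 mm skin, and acellular 15 mm skin has the widest spread for Lox (20.5 to 183 CPM).

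The question of the treatment comparison is whether wounds that received cell-laden beads differed from wounds that received empty ones. None of the 10 genes passed an adjusted p of 0.05 in edgeR's quasi-likelihood test (Benjamini-Hochberg over all genes tested): 0 were called in 10 mm wounds (background 0% of genes), 0 in 15 mm wounds (background 2.93%) and 0 with the sizes combined (background 0%). Their estimates nevertheless leaned 1 way: the log2 fold change of HDB over acellular was above 0 for 10 of 10 genes at 10 mm (48.2% of all genes), for 9 of 10 at 15 mm (50.3%) and for 10 of 10 over both sizes (48.8%). Median log2 fold changes of the 10 genes were 0.70, 0.65 and 0.62, beside -0.01, 0.00 and -0.01 over all genes. Unadjusted p lay under 0.05 for 2 of the 10 genes at 10 mm (3.53% of all genes), for 4 at 15 mm (23.2%) and for 6 over both sizes (15.8%). The 10 genes are not independent of each other, and the 2 single-size comparisons enter the comparison over both sizes. Markers of several cell types leaned with treatment too, none of them called. At 10 mm and 15 mm, fibroblast markers were above 0 for 8 of 8 genes (medians 0.81 and 0.65), macrophage markers for 6 of 6 (0.45 and 0.81) and endothelial markers for 5 of 5 (0.65 and 0.44). Adipocyte markers were above 0 for 5 of 5 at 10 mm and 4 of 5 at 15 mm (1.497 and 0.51), and skeletal muscle markers for 3 of 8 and 8 of 8 (-0.03 and 1.06). Erythrocyte markers were above 0 for 0 of 3 and 3 of 3 (-0.11 and 1.00). Hair shaft genes were below 0 for 9 of 9 at each size (-4.81 and -4.73), but their summed level was uneven: acellular 10 mm replicate 2 (18.1 CPM) lay below every HDB 10 mm sample (24.8 to 35.7 CPM) and acellular 15 mm replicate 3 (27.5 CPM) below every HDB 15 mm sample (105 to 520 CPM). The part of these cell types in the differences was not tested.

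Among the lysyl oxidases, Lox, the enzyme that crosslinks both collagen and elastin, was read at 39.4, 79.6 and 43.1 CPM in acellular 10 mm skin and at 142, 81.6 and 124 CPM in HDB 10 mm skin. In acellular 15 mm skin it was at 20.5, 59.2 and 183 CPM, and in HDB 15 mm skin at 112, 177 and 259 CPM. All 3 HDB 10 mm samples lay above all acellular 10 mm samples, if narrowly for replicate 2, whereas at 15 mm the groups overlapped because acellular replicate 3 was higher than 2 of the HDB samples. The log2 fold change was 1.10 (SE 0.603, adjusted p = 1.00) at 10 mm, 1.06 (SE 0.602, adjusted p = 0.308) at 15 mm and 1.08 (SE 0.426, adjusted p = 0.276) over both sizes. Dropping acellular 15 mm replicate 3 brought the log2 fold change to 2.198 at 15 mm (adjusted p = 0.0241) and 1.65 over both sizes (adjusted p = 0.0486), both past the threshold. Dropping acellular 15 mm replicate 1 instead lowered the 15 mm value to 0.59, with an adjusted p of 0.594. Replicate 3 also had the most fibroblast marker RNA of its group, at 2335 CPM against 736 and 976. Without replicate 3 the number of all genes called went from 450 to 2322 at 15 mm and from 0 to 229 over both sizes.

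Loxl1, which serves elastic fibre assembly, read 21.8, 36.4 and 17.9 CPM in acellular 10 mm skin and 47.5, 35.0 and 43.9 CPM in HDB 10 mm skin. At 15 mm it read 13.8, 36.8 and 61.7 CPM in the acellular group and 50.4, 102 and 107 CPM in the HDB group. The groups overlapped at both sizes, by 1 acellular sample each time. Its log2 fold changes were 0.73 (SE 0.483) at 10 mm and 1.21 (SE 0.485, adjusted p = 0.165) at 15 mm, and without acellular 15 mm replicate 3 the latter was 1.77 with an adjusted p of 0.0391. Without acellular 15 mm replicate 1 it was 0.81 and not called.

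Loxl2 is a lysyl oxidase with scavenger receptor domains that acts on collagen IV of basement membranes (Entrez gene 94352, chr14:69608692-69695834 on GRCm38.p6). It stood at 28.8, 44.0 and 31.7 CPM in acellular 10 mm skin and at 67.5, 70.6 and 90.0 CPM in HDB 10 mm skin, which is a clear separation. At 15 mm, values of 57.2, 40.7 and 96.9 CPM in the acellular group met 55.3, 142 and 83.1 CPM in the HDB group, so the groups overlapped. The log2 fold change was 1.13 at 10 mm (SE 0.387, unadjusted p = 0.0125, adjusted p = 1.00) and 0.52 at 15 mm (SE 0.382, adjusted p = 0.431), and the difference between the sizes did not pass (-0.60, SE 0.541, adjusted p = 0.682). The 15 mm value was 0.09 without HDB replicate 2 and 0.93 without acellular replicate 3. Loxl2 overlaps the non-coding gene Gm27177, and its estimated counts were not whole in 10 of 15 samples.

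Loxl3 and Loxl4, of the same subgroup as Loxl2, were low throughout. Loxl3 was at 2.34, 5.67 and 3.27 CPM in acellular and 7.58, 4.41 and 7.44 CPM in HDB 10 mm skin, and Loxl4 at 4.85, 8.87 and 6.37 CPM in acellular and 11.5, 10.5 and 13.6 CPM in HDB 10 mm skin. The Loxl4 groups did not overlap and the Loxl3 groups did. Log2 fold changes at 10 mm were 0.78 (SE 0.382) for Loxl3 and 0.82 (SE 0.432) for Loxl4, and at 15 mm, where both overlapped, 0.51 (SE 0.376) and 0.38 (SE 0.429). The 15 mm value of Loxl4 was 0.02 without acellular replicate 1 and 1.08 without acellular replicate 3, and that of Loxl3 went from 0.22 to 0.71 with 1 sample left out in turn. Loxl3 overlaps the protein-coding gene Htra2, and its estimated counts were not whole numbers in 15 of 15 samples, so part of its value depends on how reads were divided.

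**Figure D2:**
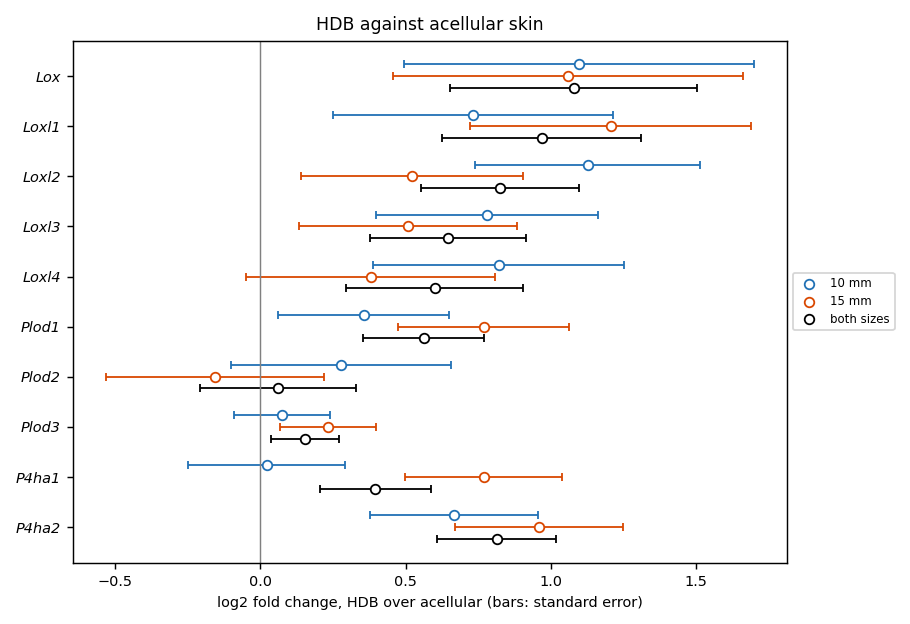
Log2 fold change of HDB over acellular skin (horizontal axis) for each gene in 10 mm wounds, in 15 mm wounds and with the sizes combined, with bars for the standard error and open circles for genes that did not pass an adjusted p of 0.05. With the sizes combined, Lox (1.08) sits furthest to the right and Plod2 (0.06) nearest to 0.

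Of the lysyl hydroxylases, Plod1 read 45.0, 54.0 and 43.8 CPM in acellular 10 mm and 72.3, 46.4 and 64.1 CPM in HDB 10 mm skin, with overlap at HDB replicate 2. At 15 mm all HDB values (88.4, 122 and 101 CPM) exceeded all acellular values (31.3, 71.4 and 80.5 CPM). The log2 fold change was 0.36 (SE 0.293) at 10 mm and 0.77 (SE 0.294, unadjusted p = 0.0220, adjusted p = 0.148) at 15 mm. Plod3, which also carries a glycosyltransferase activity, was the steadiest of the 10 genes, with an SD of its log2 level of 0.239 over the 15 samples. It lay between 49.8 and 92.7 CPM in every sample, and its log2 fold changes were 0.07 (SE 0.165, adjusted p = 1.00) and 0.23 (SE 0.165, adjusted p = 0.413). Its start region overlaps Znhit1, and its estimated counts were not whole in 15 of 15 samples.

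Plod2 (Entrez gene 26432, chr9:92539636-92608428 on GRCm38.p6) read 5.54, 7.81 and 10.1 CPM in acellular 10 mm skin and 9.0, 6.83 and 12.6 CPM in HDB 10 mm skin. At 15 mm it read 19.6, 19.6 and 6.37 CPM in the acellular group and 11.7, 16.6 and 12.6 CPM in the HDB group. In acellular 15 mm skin replicates 1 and 2 thus held the highest values of the series, and replicate 3, the sample richest in Lox within that group, held the lowest of its group. The log2 fold change was 0.28 (SE 0.380) at 10 mm and -0.16 (SE 0.376) at 15 mm, with a sign at 15 mm that changed to 0.07 when acellular replicate 1 or 2 was left out.

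Of the prolyl 4-hydroxylase subunits, P4ha2 (Entrez gene 18452, chr11:54100924-54131668 on GRCm38.p6) read 20.2, 30.4 and 24.1 CPM in acellular 10 mm skin against 32.3, 39.8 and 46.7 CPM in HDB 10 mm skin, and 15.8, 31.7 and 35.4 CPM in acellular 15 mm skin against 38.6, 63.5 and 59.4 CPM in HDB 15 mm skin. Every HDB sample exceeded every acellular sample of its own wound size. P4ha2 was the only one of the 10 genes with such separation at both sizes, a pattern held by 39 of the 15369 genes (0.254%), whereas 4 of the 10 genes had it at 10 mm (Lox, Loxl2, Loxl4 and P4ha2, background 4.53%) and 2 at 15 mm (Plod1 and P4ha2, background 8.55%). Its log2 fold change was 0.67 (SE 0.289, adjusted p = 1.00) at 10 mm, 0.96 (SE 0.290, adjusted p = 0.0847) at 15 mm and 0.81 (SE 0.204, unadjusted p = 0.00169, adjusted p = 0.261) over both sizes, a 1.76-fold difference in the last case. DESeq2 called it at 15 mm (adjusted p = 0.0131) and over both sizes (adjusted p = 0.0122), a replicate block called it at 15 mm (adjusted p = 0.0494), and so did leaving out acellular 15 mm replicate 3 (log2 fold change 1.18, adjusted p = 0.0335). In the same order, those fits called 2174, 424, 179 and 2322 of all genes. Over 12 alternatives the 15 mm adjusted p of P4ha2 went from 0.0131 up to 0.465, and its smallest log2 fold change was 0.68, without acellular replicate 1.

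P4ha1 (Entrez gene 18451, chr10:59323197-59373304 on GRCm38.p6) read 100.1, 99.8 and 81.0 CPM in acellular and 98.1, 83.0 and 104 CPM in HDB 10 mm skin, values that could not be told apart (log2 fold change 0.02, SE 0.270). At 15 mm it read 46.4, 112 and 93.9 CPM in the acellular and 106, 169 and 155 CPM in the HDB group, with overlap only at acellular replicate 2. The log2 fold change there was 0.77 (SE 0.271, adjusted p = 0.123), and DESeq2 called it (adjusted p = 0.0371). Without acellular 15 mm replicate 1 the 15 mm values of P4ha1 and Plod1 were 0.48 and 0.45, neither called. The difference between the sizes, 0.75 (SE 0.382, adjusted p = 0.423), did not pass, and none of the 10 genes passed that interaction test (background 0%, with 5 of 10 above 0 against 47.2% of genes, and 0 of 10 at an unadjusted p under 0.05 against 13.4% of genes).

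An exact two-sided permutation test of log2 CPM over both sizes, with labels exchanged within size among 400 arrangements, gave p = 0.005 for P4ha2, which is the smallest p it can give. The full separation of P4ha2 at both sizes fixes that value, so it restates the separation given above. The exact p was 0.015 for Plod1, 0.025 for Loxl1, 0.03 for Lox, 0.035 for Loxl2, 0.04 for Loxl3 and 0.06 for Loxl4. For P4ha1, Plod3 and Plod2 it was 0.125, 0.225 and 0.695. These exact p-values are unadjusted and stand for 1 gene each, with no share over all genes beside them. At 15 mm, where same-numbered samples of the acellular and HDB groups deviated together, HDB exceeded acellular skin in all 3 same-numbered pairs for 6 of the 10 genes (Lox, Loxl1, Loxl3, Plod1, P4ha1 and P4ha2), as for 19.3% of all genes. The labels do not pair these samples, and the pairs were read after that joint deviation was seen. The log2 differences in pairs 1, 2 and 3 were 2.44, 1.58 and 0.50 for Lox and 1.28, 1.00 and 0.74 for P4ha2. Within 1 size, 3 samples against 3 cannot reach a p below 0.1.

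The other genes of collagen biosynthesis (23 genes, all tested: prolyl 3-hydroxylases, chaperones, glycosyltransferases and procollagen proteinases with their enhancers) were counted as a list. None was called between HDB and acellular skin, and 19, 20 and 19 of the 23 had log2 fold changes above 0 (10 mm, 15 mm and sizes combined), with medians of 0.32, 0.56 and 0.56. Of the substrates (elastin and collagen chains, 15 genes in all and 14 tested), none was called either, and 14, 12 and 14 of 14 lay above 0 with medians of 1.14, 0.67 and 0.89. Over both sizes the log2 fold change was 1.04 (SE 0.430, adjusted p = 0.285) for Col1a1, 1.19 (SE 0.398, adjusted p = 0.261) for Col3a1 and 0.76 (SE 0.544, adjusted p = 0.482) for Eln. Without acellular 15 mm replicate 3, Col1a1 (1.61) and Col3a1 (1.69) passed, each at an adjusted p of 0.0486. With 1 sample left out in turn, their lowest values were 0.86 and 1.015. Eln went from 0.38 to 1.52 in the same way and never passed. The 16 hypoxia-inducible genes, among them Vegfa, Slc2a1 and Car9, had medians of -0.03, 0.17 and 0.15 in the same order, with none called.

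The comparison with normal skin asks how far each healed wound was from unwounded tissue. The 4 comparisons share the 3 normal samples and are therefore not independent. Skeletal muscle markers, from the muscle layer under the skin, summed to 43090 to 51760 CPM in normal skin and to 543 to 30950 CPM in the wounds, so the dissected tissue differed in that respect, and the part of this in the comparisons with normal skin was not tested.

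In acellular 10 mm skin none of the 10 genes was called against normal skin (background 20.3%), but 2 of 10 log2 fold changes were above 0 (52% of all genes) and 8 of 10 below, with a median of -0.45. Loxl3, Plod1 and P4ha2 lay below normal skin in every sample (3 of 10, background 27.2%, thus near the share among all genes). Plod1 read 83.8, 107 and 72.0 CPM in normal skin, above the 43.8 to 54.0 CPM of acellular 10 mm skin (log2 fold change -0.88, SE 0.295, adjusted p = 0.0526). P4ha2 read 42.3, 54.0 and 38.7 CPM in normal skin (-0.85, SE 0.290, adjusted p = 0.0544), and Loxl3 6.74, 10.4 and 6.31 CPM (-1.06, SE 0.384, adjusted p = 0.0666). All 3 narrowly missed the threshold and all 3 were called by DESeq2, at adjusted p of 0.0102, 0.0122 and 0.0202. DESeq2 called 5058 of all 15369 genes in the same comparison. Loxl3 was also called without acellular 10 mm replicate 2 (-1.48, adjusted p = 0.0391). Markers were called lower in the same comparison for 4 of 8 fibroblast genes (median -0.95), 5 of 6 macrophage genes (-2.04), 5 of 5 endothelial genes (-2.17) and 5 of 5 adipocyte genes (-2.97). They were called higher for 3 of 6 basal and spinous keratinocyte genes (1.09) and 4 of 9 hair shaft genes (8.57). The part of these cell types was not tested.

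In acellular 15 mm skin 1 of the 10 genes was called against normal skin (background 30.2%, and 17.6% in the higher direction): Plod2. Signs were even, with 5 of 10 above 0 (53.8% of all genes). Normal skin held 7.10, 6.49 and 5.97 CPM, the narrowest spread of any group for this gene. Replicates 1 and 2 of acellular 15 mm skin, at 19.6 CPM each, stood well above it and replicate 3, at 6.37 CPM, lay within it, so the groups overlapped. The log2 fold change was 1.22 (SE 0.385, adjusted p = 0.0330), a 2.33-fold rise. The call was kept in 5 of 12 alternatives and was lost with the replicate block (adjusted p = 0.0568), with only the compared groups in the fit (0.106), and without acellular replicate 1 (log2 fold change 0.99, adjusted p = 0.0987), acellular replicate 2 (0.99, 0.0923) or normal replicate 1, 2 or 3 (0.0672, 0.0809 and 0.0953). Without acellular replicate 3 it was 1.59 with an adjusted p of 0.00290.

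Hair shaft and inner root sheath genes (9 genes: keratins such as Krt31, Krt35 and Krt71, and the trichohyalin gene Tchh) also differed widely in acellular 15 mm skin: they summed to 16834, 1290 and 27.5 CPM in replicates 1, 2 and 3. They summed to 105 to 520 CPM in HDB 15 mm skin and to 8.92 to 10.9 CPM in normal skin. At 10 mm they summed to 1300, 18.1 and 422 CPM in acellular replicates 1, 2 and 3, beside 5.54, 7.81 and 10.1 CPM of Plod2. In HDB 10 mm skin they summed to 32.4, 24.8 and 35.7 CPM, beside 9.0, 6.83 and 12.6 CPM of Plod2. All 9 were called higher in acellular 15 mm skin against normal skin. Endothelial markers were called lower for 5 of 5 genes (median -1.51) and macrophage markers for 4 of 6 (-1.60) in the same comparison. The part of these cell types in the Plod2 difference was not tested. P4ha2 lay below normal skin in every acellular 15 mm sample (1 of 10, background 21.5%), with a log2 fold change of -0.70 (SE 0.289, adjusted p = 0.0813), and was called with the replicate block (adjusted p = 0.0229), with DESeq2 (0.0382) and without acellular replicate 3 (-0.92, 0.0394). Lox was the least certain: its log2 fold change of 0.32 (SE 0.597) turned to -0.81 without acellular replicate 3.

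**Figure D3:**
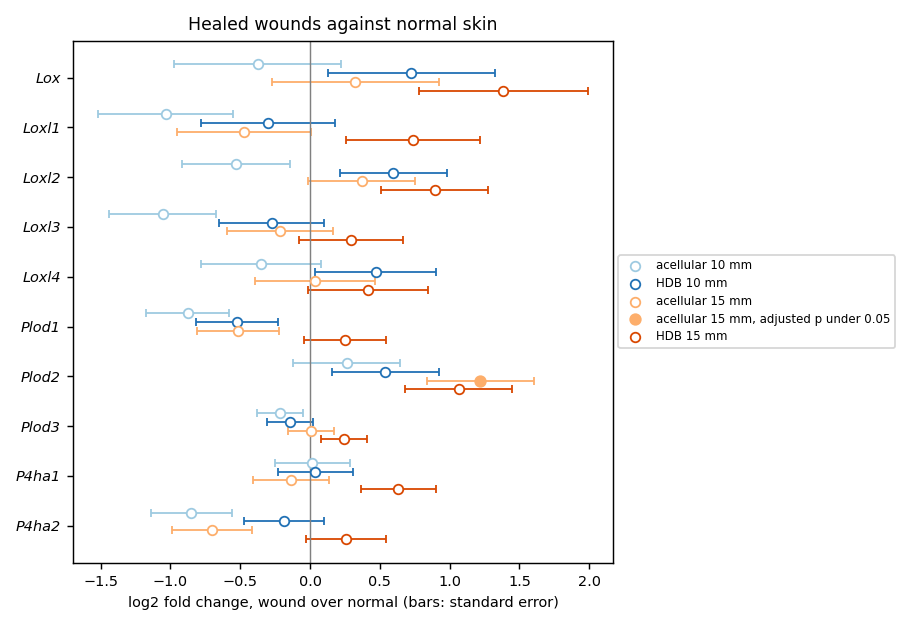
Log2 fold change of each wound group over normal skin (horizontal axis) for the 10 genes, with bars for the standard error and a filled circle for the single gene with an adjusted p under 0.05. Plod2 in acellular 15 mm skin (1.22) is the filled point, and HDB 15 mm skin lies to the right of 0 for every gene.

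In HDB 10 mm skin no gene of the 10 was called against normal skin (background 12.3%), 5 lay above 0 (52.1% of all genes) and 5 below, and every gene overlapped normal skin. The median log2 fold change was -0.05, and the largest were 0.72 (SE 0.599) for Lox and 0.60 (SE 0.383) for Loxl2. Markers were called lower here for 4 of 5 endothelial genes (median -1.44) and 3 of 6 macrophage genes (-1.61). For keratinocyte markers 1 of 6 was called higher (0.59), and for fibroblast markers 0 of 8 were called (-0.25). The part of these cell types was not tested. With scaling by library size alone Plod3 and P4ha2 turned from just below 0 to 0.05 and 0.02, under a setting that raised the median of all genes by 0.192.

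In HDB 15 mm skin none was called (background 5.18%), and 10 of 10 lay above 0 (51.9% of all genes), with a median of 0.52 beside 0.02 over all genes. Marker medians in the same comparison were 0.24 for fibroblast, 0.73 for keratinocyte and 7.70 for hair shaft genes (9 of 9 above 0), and -1.01 for endothelial (0 of 5 above 0), -0.77 for macrophage and -1.68 for skeletal muscle genes, with none called and their part not tested. Lox, Plod2 and P4ha1 exceeded normal skin in every sample (3 of 10, background 23.8%). Lox, at 112, 177 and 259 CPM, compared with 52.3, 89.9 and 67.9 CPM in normal skin (log2 fold change 1.38, SE 0.607, adjusted p = 0.168). Plod2, at 11.7 to 16.6 CPM, differed by 1.06 (SE 0.384, adjusted p = 0.107) and was called by DESeq2 (0.0386), and P4ha1, with 94.7, 104 and 78.4 CPM in normal skin, by 0.63 (SE 0.271, adjusted p = 0.159). In a fit of only the compared groups all 3 passed, at adjusted p of 0.0279, 0.0138 and 0.0499. That fit called 3401 of all genes in this comparison, and DESeq2 called 2864.

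Of the 23 partner genes, 5 fell in acellular 10 mm skin against normal skin, where 10.6% of all genes did, and none rose (Fkbp7 and Adamts2, named after their values were seen, beside the 3 described next). Pcolce and Pcolce2, which enhance removal of the procollagen C-propeptide, went from 164 ± 66.9 and 112 ± 57.8 CPM in normal skin to 39.8 ± 7.41 and 10.9 ± 1.36 CPM (SD, n = 3), log2 fold changes of -2.04 (adjusted p = 0.00656) and -3.36 (adjusted p = 0.00679). Tgm2, a transglutaminase that crosslinks matrix proteins by another chemistry, went from 405 ± 88.3 to 89.1 ± 32.0 CPM (-2.19, adjusted p = 0.0176), although leaving out acellular replicate 1 or normal replicate 3 lost that call (adjusted p = 0.0776 and 0.0502). Pcolce, Pcolce2 and Tgm2 fell in acellular 15 mm skin as well, with log2 fold changes of -1.36, -2.76 and -2.32, and in HDB 10 mm skin, with -1.22, -3.00 and -2.02. In acellular 15 mm skin 9, 11 and 12 of 12 alternatives kept the calls of Pcolce, Pcolce2 and Tgm2, with losses for Pcolce in a fit of only the compared groups (adjusted p = 0.0943), without acellular replicate 1 (0.0527) and without normal replicate 2 (0.0747), and for Pcolce2 in a fit of only the compared groups (0.0674). In HDB 10 mm skin the calls were fragile: 3, 9 and 6 of 12 alternatives kept them for Pcolce, Pcolce2 and Tgm2. In all, 4 partner genes fell in acellular 15 mm skin (the fourth was Fkbp7), 3 in HDB 10 mm skin and none in HDB 15 mm skin, beside 12.6%, 6.23% and 2.51% of all genes.

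Partner genes that rose were 0, 1, 0 and 2 of 23 in acellular 10 mm, acellular 15 mm, HDB 10 mm and HDB 15 mm skin, where 9.77%, 17.6%, 6.1% and 2.67% of all genes rose. The same shares of all genes, higher and lower, stand behind the substrate and hypoxia counts that follow. Adamts3, a procollagen N-proteinase, was low everywhere but higher than in normal skin (0.434 ± 0.218 CPM) in acellular 15 mm skin (1.98 ± 0.951 CPM, log2 fold change 2.17, adjusted p = 0.0107, or 0.0664 in a fit of only the compared groups) and HDB 15 mm skin (1.78 ± 0.392 CPM, 2.02, adjusted p = 0.0429). Serpinh1, the collagen chaperone HSP47, rose from 271 ± 82.6 to 576 ± 120 CPM in HDB 15 mm skin (1.09, adjusted p = 0.0366). In HDB 15 mm skin both calls were lost in part of the alternatives (kept in 7 of 12 for Serpinh1 and 4 of 11 for Adamts3). Of the substrates 4 fell in acellular 10 mm skin, among them Col1a1 (-1.98, SE 0.623, adjusted p = 0.0429, kept in 6 of 12 alternatives), 1 rose in acellular 15 mm and 1 in HDB 10 mm skin, and none was called in HDB 15 mm skin. The other 3 that fell were Col1a2, Col4a2 and Col14a1, and the one that rose was Col12a1 in both groups, named after their values were seen. The hypoxia-inducible genes had medians of -0.47, -0.46, -0.31 and -0.20 against normal skin in acellular 10 mm, acellular 15 mm, HDB 10 mm and HDB 15 mm skin, with 4, 3, 4 and 1 higher calls and 3, 7, 2 and 2 lower calls.

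In ratios between related enzymes within a sample the scaling cancels, apart from the small prior count. The log2 ratio of Plod2 to Plod1 (of CPM) was -3.54, -4.02 and -3.57 in the normal samples. It was -3.00, -2.77 and -2.10 in acellular 10 mm skin, -2.99, -2.74 and -2.34 in HDB 10 mm skin, -0.67, -1.86 and -3.63 in acellular 15 mm skin, and -2.91, -2.87 and -2.99 in HDB 15 mm skin. Thus 11 of 12 wound samples lay above all normal samples, the exception being acellular 15 mm replicate 3, and the HDB 15 mm samples lay closest together (SD 0.0602). HDB minus acellular was -0.47 over both sizes (two-sided exact permutation p = 0.38), and -0.07 at 10 mm and -0.87 at 15 mm, where a p cannot fall below 0.1. The 15 mm difference went from -1.66 to -0.18 with 1 sample left out in turn.

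The ratio of P4ha1 to P4ha2 was 1.16, 0.95 and 1.02 in normal skin. Acellular 10 mm skin had 2.30, 1.71 and 1.75, HDB 10 mm skin 1.60, 1.06 and 1.15, acellular 15 mm skin 1.54, 1.82 and 1.40, and HDB 15 mm skin 1.46, 1.41 and 1.38. All HDB 10 mm values were below all acellular 10 mm values, and 10 of 12 wound samples were above all normal samples. HDB minus acellular was -0.65 at 10 mm (exact p = 0.1, the smallest possible), -0.17 at 15 mm (exact p = 0.3) and -0.41 over both sizes (exact p = 0.015, 0.18 after Benjamini-Hochberg adjustment over the 12 ratio tests). The adjusted value does not pass.

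Lox to Loxl1 was 0.78, 0.32 and 0.35 in normal skin and between 0.57 and 1.57 in the wounds, where 10 of 12 samples lay above all normal samples. Loxl2 to Lox lay between -1.64 and -0.20 in 11 wound samples and stood at 1.47 in acellular 15 mm replicate 1, where Lox had its lowest value of the series. For neither ratio did HDB differ from acellular skin by an exact p below 0.2.

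**Figure D4:**
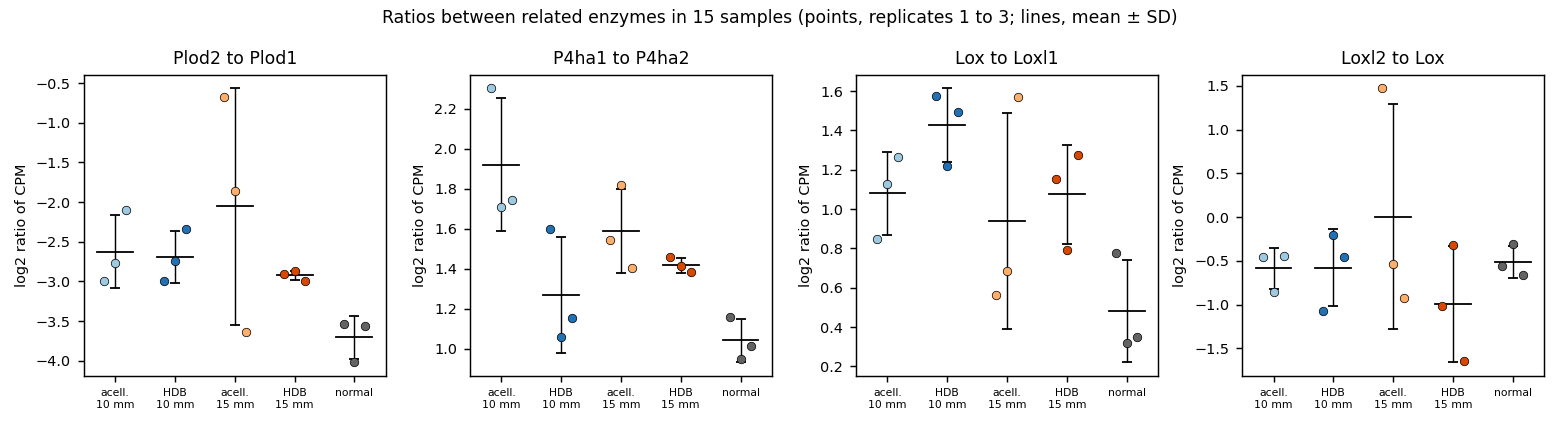
Log2 ratio of CPM (vertical axis) for 4 pairs of related enzymes in the 15 samples by group, with points for replicates 1 to 3 and lines for the mean ± SD. Normal skin holds the lowest mean for Plod2 to Plod1 (-3.71) and for P4ha1 to P4ha2 (1.04).

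Finally, each enzyme was set against the fibrillar collagens it acts on, the mean log2 CPM of Col1a1, Col1a2 and Col3a1 in the same sample. This is a description, since collagen and enzymes share the library. For Lox the SD over the 15 samples narrowed from 0.970 for the log2 level to 0.639 for the log2 ratio to collagen, and for Loxl1 from 0.840 to 0.469. For Plod2 it widened from 0.616 to 1.25, for Plod3 from 0.239 to 0.827 and for P4ha1 from 0.425 to 0.828. The collagen mean itself ran from 9.95 to 12.8. Genes as steady as Plod3 and P4ha1 must widen beside it, so their widening cannot show whether they follow collagen. Loxl2 (0.655 and 0.649), Loxl4 (0.584 and 0.578) and P4ha2 (0.554 and 0.555) stayed level, and Loxl3 (0.621 to 0.693) and Plod1 (0.548 to 0.649) widened less. Relative to collagen, HDB minus acellular (log2) lay below 0 at 10 mm for every gene, from -1.31 for P4ha1 to -0.19 for Loxl2. At 15 mm it was 0.33 for Lox and 0.20 for Loxl1. The other genes lay below 0 there, from -1.18 for Plod2 to -0.17 for P4ha2. These differences were not tested.

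**Figure D5:**
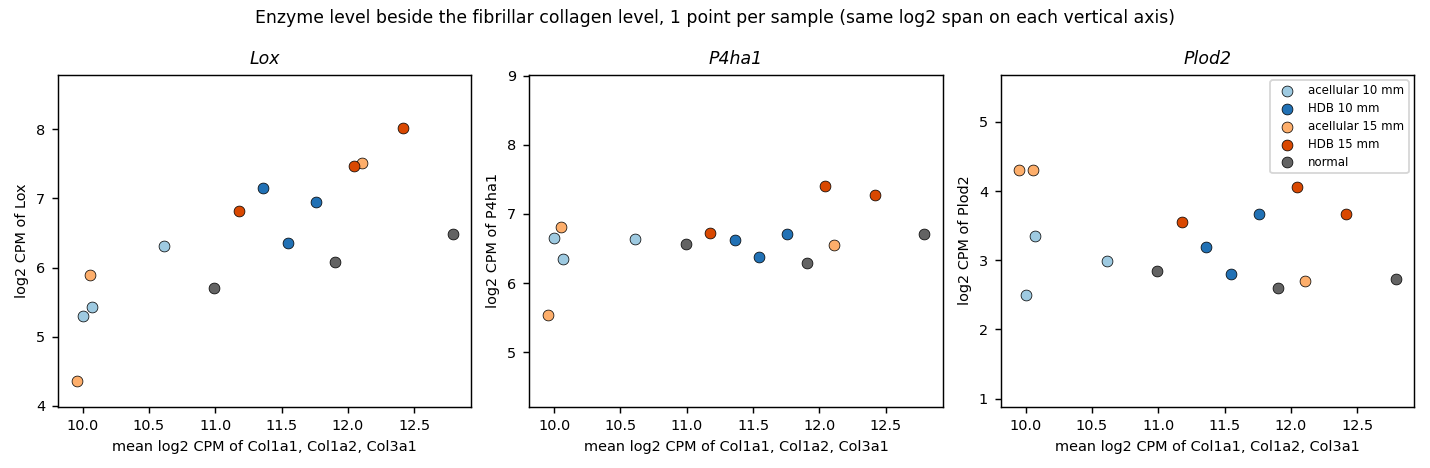
Log2 CPM of Lox, P4ha1 and Plod2 (vertical axes, same span) against the mean log2 CPM of Col1a1, Col1a2 and Col3a1 (horizontal axis), 1 point per sample, coloured by group. Lox climbs with collagen over most samples, P4ha1 runs from 46.4 CPM in the sample lowest in collagen to 169 CPM in an HDB 15 mm sample, and Plod2 is highest in 2 acellular 15 mm samples low in collagen.

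Likeness between genes was measured as the root mean square difference of log2 CPM, each gene centred on its own mean, over the 15 samples and among 11348 genes with a mean log2 CPM of at least 3. Nearest to Lox were Nox4 (0.344), Fbln2 (0.357) and Col5a2 (0.359), against 0.937 for Lox around its own mean. Nearest to Loxl2 were Col6a2 (0.284), Bgn (0.293) and Col6a1 (0.319). P4ha2 lay nearest to Gng2, Ikbip and Olfml2b (0.206, 0.206 and 0.208) and P4ha1 nearest to Npdc1, Arfgap3 and Atg16l2 (0.190, 0.198 and 0.199). Nearest to Plod2 were Nek6, Lbh and Dzip3 (0.329, 0.329 and 0.354). Around their own means Loxl2, P4ha2, P4ha1 and Plod2 stood at 0.633, 0.535, 0.411 and 0.595. A smaller difference is therefore not by itself a closer likeness. Within the 10 genes the closest pair was Plod1 and P4ha2 (0.267) and the farthest was Lox and Plod2 (1.12).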

How the data were processed

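Poly(A) RNA of mouse skin was read in 15 samples, 3 in each of 5 groups. The authors deposited 1 table of expected counts for 18929 genes, with no normalization applied. The submitters' processing notes name HISAT2 2.0.4, Bowtie2 2.2.5, RSEM 1.2.12 and build GRCm38.p6, without their roles. Whether strand was used in counting is not given in the sources used here.

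Counts were rounded to whole numbers. In R 4.3.3, edgeR 4.0.16 (TMM scaling, filterByExpr, quasi-likelihood) fitted the means of all 5 groups together, and p-values were adjusted by Benjamini-Hochberg over 15369 genes, with a threshold of 0.05. Standard errors follow from the log2 fold change and the F value. A prior count of 2 entered log2 CPM. Permutation tests were exact and two-sided. Scripts were tested on simulated data. Genes were matched to RefSeq by symbol.

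The 10 genes and the lists were chosen with earlier results of these data known. The text names the 10 genes, the 3 most risen and 3 most fallen called partner genes in each comparison with normal skin, and Col1a1, Col3a1 and Eln. Lists named without a gene's values are given by counts and medians. Marker genes named beside a list illustrate it.

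Alternatives were DESeq2 1.42.0, no filter, a mean count of at least 50, only the compared groups, library size scaling, a prior count of 0.5, the replicate number as a block, and leaving out each replicate. Same-numbered samples deviated together in all 3 pairs only between acellular and HDB 15 mm skin (correlations 0.397, 0.167 and 0.183), and nothing in the labels says what a number marks.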

Additional observations from a re-analysis of the deposited data

How the results depend on the processing

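With 1 sample left out at a time, counts moved widely. For HDB against acellular at 15 mm, the number of genes called ranged from 0 to 2322 (450 with all samples) and that of the 10 enzyme genes from 0 to 3. Over both sizes the ranges were 0 to 229 and 0 to 1, and for the interaction of treatment and size 0 to 1 genes. Against normal skin the genes called ranged from 800 to 1853 in acellular 10 mm (3125 with all samples) and 2304 to 5805 in acellular 15 mm (4642). They ranged from 78 to 2725 for HDB 10 mm (1895) and 34 to 1340 for HDB 15 mm (796). The enzyme genes called ranged from 0 to 1 in acellular 10 mm and from 0 to 2 in acellular 15 mm. Each fit pooled the spread over groups.

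DESeq2 called more genes: 17 at 10 mm, 2174 at 15 mm (with 2 enzyme genes), 424 over both sizes (with 1), 868 for the interaction, and against normal skin 5058 in acellular 10 mm (with 3), 3804 for HDB 10 mm and 2864 for HDB 15 mm (with 1), as well as 2 enzyme genes in acellular 15 mm. At 15 mm, no filter gave 199 genes, a mean count of at least 50 gave 695, library size scaling 886, and only the compared groups 0. With library size scaling the interaction called 1 gene, HDB 10 mm 3273 and HDB 15 mm 2084 (with 1 enzyme gene). With only the compared groups the counts against normal skin were 6196 (with 2 enzyme genes), 972 (with 0), 2988 and 3401 (with 3) for the acellular wounds of 10 mm and 15 mm and the HDB wounds of 10 mm and 15 mm. The filter at 50 gave 1 enzyme gene in acellular 10 mm.

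Blocking on replicate number, 179 genes and 1 enzyme gene (P4ha2) were called at 15 mm, 1 enzyme gene in acellular 10 mm against normal skin (P4ha2, log2 fold change -0.88, adjusted p = 0.0226), 1187 genes in HDB 10 mm and 237 in HDB 15 mm. Under the block the interaction estimate of Lox turned from -0.04 to 0.054 and Loxl4 in acellular 15 mm against normal skin from 0.04 to -0.059.

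P4ha1 in acellular 10 mm against normal skin was -0.0084 with DESeq2 and -0.0031 with the filter at 50, Plod3 in acellular 15 mm was -0.0027 with DESeq2, and with library size scaling P4ha1 in acellular 15 mm was 0.081 and Plod3 and P4ha2 in HDB 10 mm were 0.054 and 0.015. That scaling raised the median of all genes by 0.153 to 0.194 against normal skin.

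With 1 sample left out in turn, the log2 values that changed sign had these ranges. For HDB against acellular, 10 mm, Plod3 ranged from -0.045 to 0.16, P4ha1 from -0.073 to 0.13, the ratio of Loxl2 to Lox from -0.18 to 0.25, and the ratio of Plod2 to Plod1 from -0.25 to 0.20. For HDB against acellular, 15 mm, Plod2 ranged from -0.52 to 0.072, and the ratio of Lox to Loxl1 from -0.051 to 0.45. For HDB against acellular, both sizes, Plod2 ranged from -0.12 to 0.17. For the treatment by size interaction, Lox ranged from -0.50 to 1.10, and Loxl4 from -0.80 to 0.26. For acellular 10 mm against normal, P4ha1 ranged from -0.10 to 0.11. For acellular 15 mm against normal, P4ha1 ranged from -0.40 to 0.16, Plod3 from -0.087 to 0.16, Lox from -0.81 to 0.79, Loxl2 from -0.039 to 0.74, Loxl4 from -0.66 to 0.39, and Loxl3 from -0.41 to 0.041. For HDB 10 mm against normal, P4ha1 ranged from -0.063 to 0.14, and Loxl1 from -0.57 to 0.0077. The prior count of 0.5 turned no sign among the ratios. The smallest counts were 41 for Loxl3, 68 for Loxl4 and 89 for Plod2, and 3 samples per group limit every comparison. The causes of these shifts were not tested.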
